A study of Mus musculus with 6 samples.

Results

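The Hippo pathway and the genes known as targets of its effector YAP were followed here in mouse organoids with and without a GATA6 knockout. The members were 38 genes taken by symbol from the 54418 rows of the deposited count table, 28 of them pathway components and 10 of them target genes. All 38 had a row, and 33 were expressed enough to be tested (26 pathway members and 7 targets). RNA came from organoids, self-organising epithelial cultures, that the labels call AKP in both groups without spelling out the alleles. The groups were Control (3 libraries) and GATA6KO (3 libraries), named by genotype in the labels. The series title sets them in a study of GATA6 loss, lineage plasticity and metastasis of colorectal cancer. The labels do not give age, culture time or the lesion in the gene, or say whether replicates came from separate cultures or from clones. A p-value here therefore sets a difference against the variation among these 6 libraries, part or all of which may be technical.

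The Hippo pathway is a kinase cascade that restrains growth. The kinases MST1 and MST2 (genes Stk4 and Stk3), with the scaffold SAV1, activate LATS1 and LATS2, which with MOB1 phosphorylate the coactivators YAP and TAZ (genes Yap1 and Wwtr1) and keep them out of the nucleus. Unphosphorylated YAP and TAZ bind TEAD factors on DNA and raise targets such as Ccn1 and Ccn2, and some of the targets (Lats2, Amotl2, Ptpn14 and Wwc1 among the pathway members) are themselves restraints on YAP. In the intestine YAP is largely dispensable in steady state and is known for its part in regeneration after injury and in tumours. Because YAP and TAZ are controlled mainly by phosphorylation and location, transcript levels of pathway components do not report their activity.

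Total estimated counts ran from 22973245 to 31328415 per library. Levels are CPM, counts per 1000000 counts of a library after TMM scaling (trimmed mean of M-values). An adjusted p is from edgeR's quasi-likelihood test of GATA6KO against Control adjusted by Benjamini-Hochberg across the 14714 genes that were tested, and a gene is said to have risen or fallen where it is under 0.05. Gata6 itself (ENSMUSG00000005836) was at 25.3, 23.2 and 28.01 CPM in Control and 14.3, 16.0 and 8.24 CPM in GATA6KO, so reads of the gene were still counted in the knockout, at 0.560, 0.629 and 0.323 of the Control mean (log2 fold change -0.99, SE 0.25, adjusted p = 0.0486). GATA6KO libraries spread more than Control libraries, with a median SD per gene of 0.279 against 0.0949 on the log2 CPM scale. Chromosome 14 was low as a whole in GATA6KO replicate 2 (median log2 ratio of its genes to mean Control -0.90), while every other chromosome and library lay between -0.13 and 0.11. All 8 epithelial markers looked for were expressed. In GATA6KO 4 of 8 were lower (Cdh1, Krt8, Krt18 and Cldn7), against 5.47% of all genes tested. The summed level of the 8 markers, most of it from Krt8 and Krt19, ran from 9943 to 10750 CPM in Control and from 6835 to 7928 CPM in GATA6KO.

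Of the 33 members tested, 10 changed, 4 higher and 6 lower, or 30.3% against 12.4% of all genes tested (6.92% of all genes were higher and 5.47% were lower). The 26 pathway members had 13 positive and 13 negative log2 fold changes, with 3 called higher, 5 called lower and a median log2 fold change of -0.02, beside 0.02 over all genes tested. The 7 targets lay lower, at a median log2 fold change of -0.63, with 6 of 7 negative, but their calls were 1 higher (Nuak2) and 1 lower (Dock5). Ccn1, Ccn2, Crim1 and Myof were far lower in GATA6KO replicates 1 and 3 than in Control, while GATA6KO replicate 2 kept them at 0.884 to 1.05 of the Control mean. Groups did not overlap for 13 of 26 pathway members and 6 of 7 targets, against 40.8% of all genes tested. For Ccn1 and Ccn2 the gap was very small. GATA6KO replicate 2 was at 15.80 and 107.77 CPM, and the lowest Control library was at 15.88 and 107.83 CPM. All 10 calls were lost when Control replicate 1, 2 or 3 was left out (adjusted p from 0.0744 to 0.221), where edgeR called 2.18% to 2.79% of all genes and 12 of the members had an unadjusted p under 0.05 each time.

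**Figure D1:**
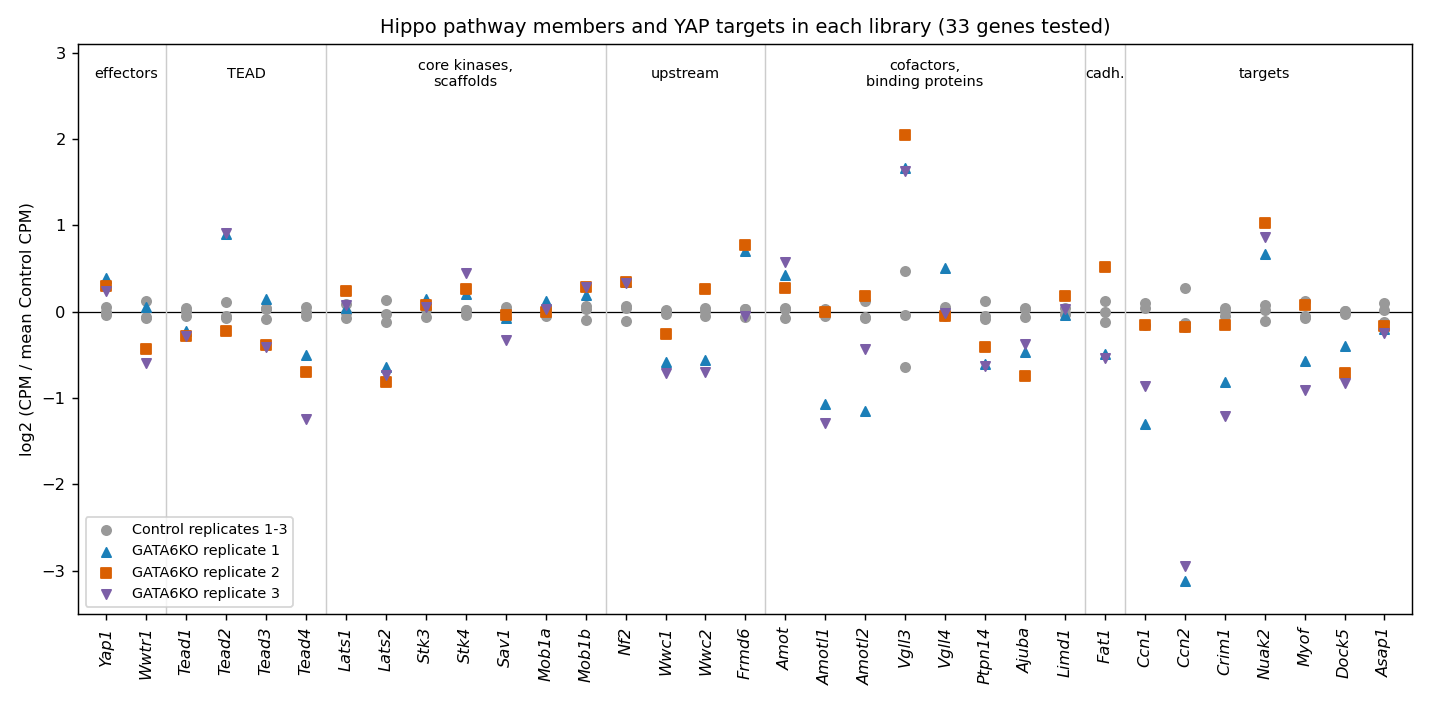
Level of each of the 33 tested members in each library as the log2 ratio to the mean Control CPM (vertical axis), with genes ordered by role. Grey circles are the Control libraries, and coloured symbols are GATA6KO replicates 1 to 3. Ccn2, Amotl1, Crim1 and Myof lie low in GATA6KO replicates 1 and 3 and near the Control libraries in replicate 2, while the core kinases lie close to 0 in all libraries except Lats2.

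Among the effectors, Yap1 and Wwtr1, which encode the paralogous coactivators YAP and TAZ, neither passed the test. Yap1 (ENSMUSG00000053110, chr9:7931999-8004596) measured 169, 162 and 158 CPM in Control and 214, 199.5 and 192 CPM in GATA6KO, each in the order of replicates 1 to 3, as in all such sentences below. Positions are those of build mm10 and span the whole gene. All 3 GATA6KO libraries lay above all 3 Control libraries, by a log2 fold change of 0.31 (SE 0.08, adjusted p = 0.0589). The gene was called with scaling to the library total alone (0.38, adjusted p = 0.0341) and by DESeq2 (0.30, adjusted p = 0.00448). Yap1 was also called without GATA6KO replicate 1 or 3 (adjusted p = 0.0402 and 0.0473). Those 2 fits called 28.8% and 12.1% of all genes, so a call without replicate 1, here or below, was common. On simulated counts 70 of 199 DESeq2 calls were false, against 5 of 114 for edgeR, which bears on each DESeq2 call given here and below. The simulation gave both groups the same spread per gene, taken from edgeR's estimates, whereas GATA6KO libraries here spread more than Control libraries. The rates of false calls in the real data may therefore differ for both tools. Wwtr1 measured 70.8, 71.3 and 81.3 CPM in Control and 77.5, 55.2 and 49.5 CPM in GATA6KO (log2 fold change -0.29, SE 0.18, adjusted p = 0.293). Replicate 1 of GATA6KO lay within the Control range and the other two GATA6KO libraries lay below it, and without replicate 1 the gene was called lower (-0.51, adjusted p = 0.0186). Per kilobase of exon, Yap1 was at 17.6 and Wwtr1 at 15.6 CPM in Control, against 21.8 and 12.7 CPM in GATA6KO. The ratio of Yap1 to Wwtr1 level per kilobase was 1.23, 1.17 and 1.01 in the Control libraries and 1.43, 1.87 and 2.0 in the GATA6KO libraries. This ratio was chosen after the values were seen and was not tested.

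Of the 4 TEAD genes, which encode the DNA-binding partners of YAP and TAZ, Tead4 fell and the others did not pass the test. Tead4 (ENSMUSG00000030353, chr6:128224288-128300823) had the highest level of the 4 TEAD genes per kilobase in Control, at 20.4 CPM per kilobase. This rank depends on merged exon length (3598 bases for Tead4, 13570 for Tead1). By CPM, Tead1 averaged 96.7 and Tead4 73.4 in Control. Tead4 measured 73.0, 71.0 and 76.3 CPM in Control and 51.9, 45.2 and 31.1 CPM in GATA6KO, without overlap, and fell by 0.78 on the log2 scale (SE 0.18, adjusted p = 0.0397). The call was also lost without GATA6KO replicate 2 (log2 fold change -0.82, adjusted p = 0.0542). Tead1 averaged 96.7 ± 3.07 CPM in Control and 80.6 ± 1.67 CPM in GATA6KO (SD, n = 3 each), again without overlap (log2 fold change -0.26, SE 0.08, adjusted p = 0.0692). It was called by DESeq2 (-0.27, adjusted p = 0.00765). Without GATA6KO replicate 1 it was called by edgeR (-0.28, adjusted p = 0.0326), as were 28.8% of all genes. Tead2 measured 35.1, 30.7 and 31.3 CPM in Control and 60.4, 27.8 and 61.0 CPM in GATA6KO, so that replicates 1 and 3 were near 1.86 and 1.88 of the Control mean and replicate 2 was below every Control library. It did not pass the test with all libraries (log2 fold change 0.62, SE 0.29, adjusted p = 0.197) and did without GATA6KO replicate 2 (0.91, adjusted p = 0.00452). Tead3 was the least abundant of the 4 per kilobase, at 1.91 and 1.68 CPM per kilobase (log2 fold change -0.19, adjusted p = 0.522).

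**Figure D2:**
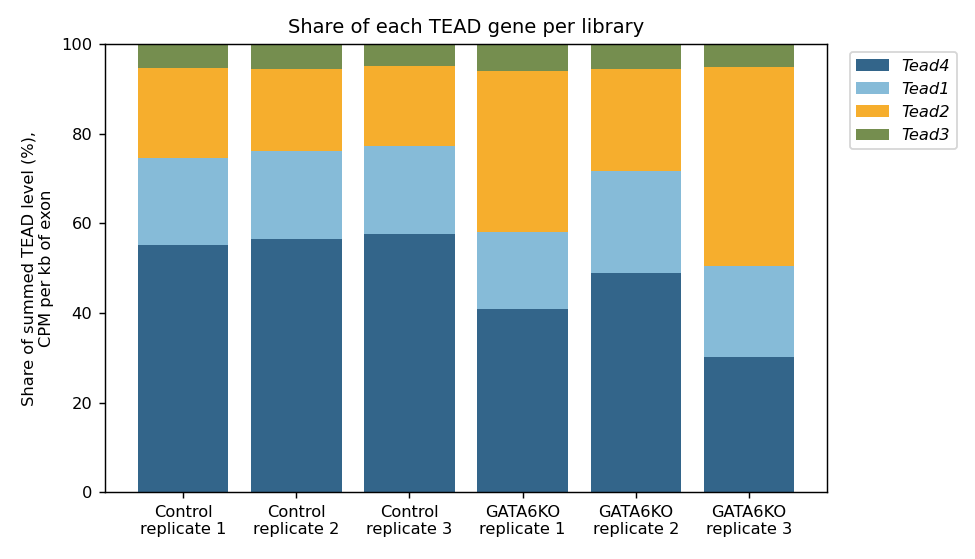
Share of each TEAD gene in the summed TEAD level of a library (CPM per kilobase of exon, percent, stacked bars), for the 3 Control and 3 GATA6KO libraries. Tead4 made up 55.2%, 56.4% and 57.5% of the sum in the Control libraries and 40.9%, 48.9% and 30.1% in the GATA6KO libraries, while Tead2 made up 17.7% to 19.96% in Control and 35.8%, 22.6% and 44.4% in GATA6KO. The shares depend on the merged exon lengths used and were not tested.

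In the core kinase cassette only Lats2 passed the test, and the other 6 members had log2 fold changes from -0.14 (Sav1) to 0.30 (Stk4). Lats2 (ENSMUSG00000021959, chr14:57689662-57758388), the LATS kinase that is itself a YAP target, measured 16.2, 15.2 and 18.2 CPM in Control and 10.6, 9.44 and 9.94 CPM in GATA6KO. Every GATA6KO library lay below every Control library, and Lats2 fell by 0.73 on the log2 scale (SE 0.13, adjusted p = 0.0195). Lats2 lies on the chromosome that is low in GATA6KO replicate 2. GATA6KO replicates 1 to 3 were at 0.642, 0.570 and 0.60 of the Control mean, and without replicate 2 the log2 fold change was -0.69 (adjusted p = 0.0248). The part of the chromosome 14 shift in the Lats2 values was not tested. A same-strand gene model, Gm49361, shares 42.4% of the exon bases of Lats2 and held 0, 7 and 17 counts in Control and 0 in each GATA6KO library, so the division of reads between them is uncertain. Lats1, its paralog, measured 103 ± 6.0 and 112 ± 8.74 CPM (SD, n = 3 each; log2 fold change 0.12, adjusted p = 0.42).

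Stk4, which encodes MST1, averaged 81.9 ± 1.76 CPM in Control and 101 ± 8.94 CPM in GATA6KO (SD, n = 3 each), with no overlap (log2 fold change 0.30, SE 0.09, adjusted p = 0.0768). It passed with scaling to the library total alone (0.38, adjusted p = 0.0482) and by DESeq2 (0.30, adjusted p = 0.0304). Its partner kinase Stk3, which encodes MST2, was at 39.3 and 41.8 CPM (adjusted p = 0.508). The scaffold Sav1 was at 72.4 and 65.6 CPM (adjusted p = 0.397), with 25.4% of its exon bases shared with the antisense gene Atl1. The LATS cofactors Mob1a and Mob1b measured 199.9 and 207 CPM, and 71.4 and 85.1 CPM, in Control and GATA6KO (adjusted p = 0.712 and 0.0997). Mob1b passed by DESeq2 (0.25, adjusted p = 0.0491). Mob1b and Stk4 also passed without GATA6KO replicate 1 (adjusted p = 0.0445 and 0.0288), as did 28.8% of all genes.

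Of the 4 upstream activators, Nf2 rose and Wwc1 fell. Nf2 (ENSMUSG00000009073, chr11:4765845-4849536), the gene of the tumour suppressor Merlin, measured 99.9, 102 and 90.3 CPM in Control and 123, 124 and 122 CPM in GATA6KO. The GATA6KO libraries had an SD of only 0.720 CPM and all lay above the Control libraries, by a log2 fold change of 0.34 (SE 0.08, adjusted p = 0.0446). The call of Nf2 was lost on leaving out GATA6KO replicate 2 or 3 (adjusted p = 0.0536 and 0.0579), and with no filter on low counts (adjusted p = 0.0773). Wwc1 (ENSMUSG00000018849, chr11:35838400-35980527), which encodes the scaffold KIBRA and is also a YAP target, measured 144, 141 and 146 CPM in Control and 96.1, 119.9 and 88.0 CPM in GATA6KO. It fell by 0.50 (SE 0.13, adjusted p = 0.0473), and the call was lost without GATA6KO replicate 1 or 3 (adjusted p = 0.0554 and 0.0746) and with scaling to the library total alone (adjusted p = 0.0805).

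Its paralog Wwc2 measured 46.4 ± 1.38 CPM in Control (SD, n = 3), and 31.4, 55.7 and 28.7 CPM in GATA6KO replicates 1 to 3 (log2 fold change -0.26, adjusted p = 0.503). Replicate 2 of GATA6KO lay above all Control libraries and the other two lay below. Frmd6, a FERM-domain protein that acts with Merlin, measured 75.6 ± 2.99 CPM in Control (SD, n = 3) and 123, 129 and 73.0 CPM in GATA6KO replicates 1 to 3. Here replicate 3 stood with Control, and the log2 fold change was 0.52 with all libraries (adjusted p = 0.147) and 0.73 without GATA6KO replicate 3 (adjusted p = 0.0071).

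Of the 8 cofactors and binding proteins, Vgll3 and Amot rose and Ptpn14 and Ajuba fell. Vgll3 (ENSMUSG00000091243, chr16:65815257-65866368), a cofactor that competes with YAP for TEAD, had 8, 22 and 16 counts in Control and 52, 69 and 51 counts in GATA6KO. All 3 GATA6KO libraries were at 3.1 to 4.12 of the Control mean of 0.549 CPM, with a log2 fold change of 1.77 (SE 0.36, adjusted p = 0.0258), but its level of 1.90 CPM in GATA6KO was below that of every other tested member. Amot (ENSMUSG00000041688, chrX:145446425-145505181), an angiomotin that binds YAP at junctions, measured 75.9, 71.0 and 76.7 CPM in Control and 99.6, 89.9 and 111 CPM in GATA6KO. It rose by 0.43 (SE 0.10, adjusted p = 0.0425), and not without GATA6KO replicate 3 (0.35, adjusted p = 0.0603).

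Ptpn14 (ENSMUSG00000026604, chr1:189728268-189876695), a phosphatase that restrains YAP and is one of its targets, measured 50.6, 49.8 and 57.5 CPM in Control and 34.5, 39.7 and 34.1 CPM in GATA6KO, and fell by 0.54 (SE 0.11, adjusted p = 0.0248). Ajuba (ENSMUSG00000022178, chr14:54567472-54577558), a LIM protein that inhibits LATS, measured 80.4, 75.4 and 81.1 CPM in Control and 57.1, 47.0 and 61.0 CPM in GATA6KO, and fell by 0.52 (SE 0.12, adjusted p = 0.0346). It lies on chromosome 14 and was lowest in GATA6KO replicate 2, and without that replicate the log2 fold change was -0.42 (adjusted p = 0.0282). Both had non-overlapping groups.

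The angiomotins Amotl1 and Amotl2 had the wide spread in GATA6KO that the targets show below. Amotl1 measured 30.8, 32.8 and 32.4 CPM in Control and 15.3, 31.8 and 13.1 CPM in GATA6KO, and Amotl2 measured 27.5, 27.6 and 31.5 CPM in Control and 13.04, 32.6 and 21.3 CPM in GATA6KO. In both genes GATA6KO replicates 1 and 3 lay below all Control libraries and replicate 2 lay within or above their range. With all libraries their log2 fold changes were -0.67 and -0.37 (adjusted p = 0.209 and 0.444). Leaving out GATA6KO replicate 2 gave -1.17 and -0.75 (adjusted p = 0.00357 and 0.0739). Vgll4, another TEAD competitor, measured 112 ± 3.99 and 126 ± 28.7 CPM (SD, n = 3 each; adjusted p = 0.509), and the LIM protein Limd1 measured 72.2 ± 2.0 and 75.1 ± 5.90 CPM (adjusted p = 0.706).

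Of the giant cadherins, which act upstream of the pathway at cell contacts, Fat1 was abundant and Fat4 and Dchs1 were not tested, with at most 5 counts in any library. Fat1 measured 401, 368 and 339.8 CPM in Control and 262, 529 and 255 CPM in GATA6KO (log2 fold change -0.08, SE 0.29, adjusted p = 0.87). Its GATA6KO libraries lay on both sides of Control, with replicate 2 above and replicates 1 and 3 below, and without replicate 2 it was called lower (-0.52, adjusted p = 0.0233).

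Target genes differed in whether GATA6KO replicate 2 followed the other two. Ccn2 (ENSMUSG00000019997, chr10:24595442-24598683), the matricellular protein also known as CTGF and a standard readout of YAP, had 2461, 3201 and 4410 counts in Control and 418, 3287 and 476 counts in GATA6KO. That is 108, 111 and 147 CPM against 13.98, 108 and 15.9 CPM. GATA6KO replicates 1 and 3 were at 0.115 and 0.130 of the Control mean and replicate 2 was at 0.884, just under the lowest Control library. The group means were 122 ± 21.8 and 45.9 ± 53.6 CPM (SD, n = 3 each), a log2 fold change of -1.41 (SE 0.77) that did not pass the test (adjusted p = 0.259). Without GATA6KO replicate 2 it was -3.03 (adjusted p = 0.00155). An antisense gene model shares 23.2% of the exon bases of Ccn2, and the use of strand in counting is not given in the sources used here.

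Ccn1 (ENSMUSG00000028195, chr3:145646976-145649981), the related matricellular protein CYR61, measured 18.9, 15.9 and 18.1 CPM in Control and 7.16, 15.8 and 9.71 CPM in GATA6KO. GATA6KO replicate 2 lay just under the lowest Control library and the other two lay far below, and the log2 fold change was -0.70 (SE 0.29, adjusted p = 0.152), or -1.06 without GATA6KO replicate 2 (adjusted p = 0.0165). Crim1, a transmembrane protein that binds growth factors, measured 71.7, 74.3 and 76.5 CPM in Control and 42.0, 66.4 and 32.2 CPM in GATA6KO (log2 fold change -0.66, SE 0.25, adjusted p = 0.126; -1.0 without GATA6KO replicate 2, adjusted p = 0.00852). Myof, the membrane repair protein myoferlin, measured 470.4, 475 and 537 CPM in Control and 332, 521 and 264 CPM in GATA6KO (log2 fold change -0.41, SE 0.24, adjusted p = 0.29; -0.73 without GATA6KO replicate 2, adjusted p = 0.0198). In all 3 genes the order of the GATA6KO libraries put replicate 2 on top.

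**Figure D3:**
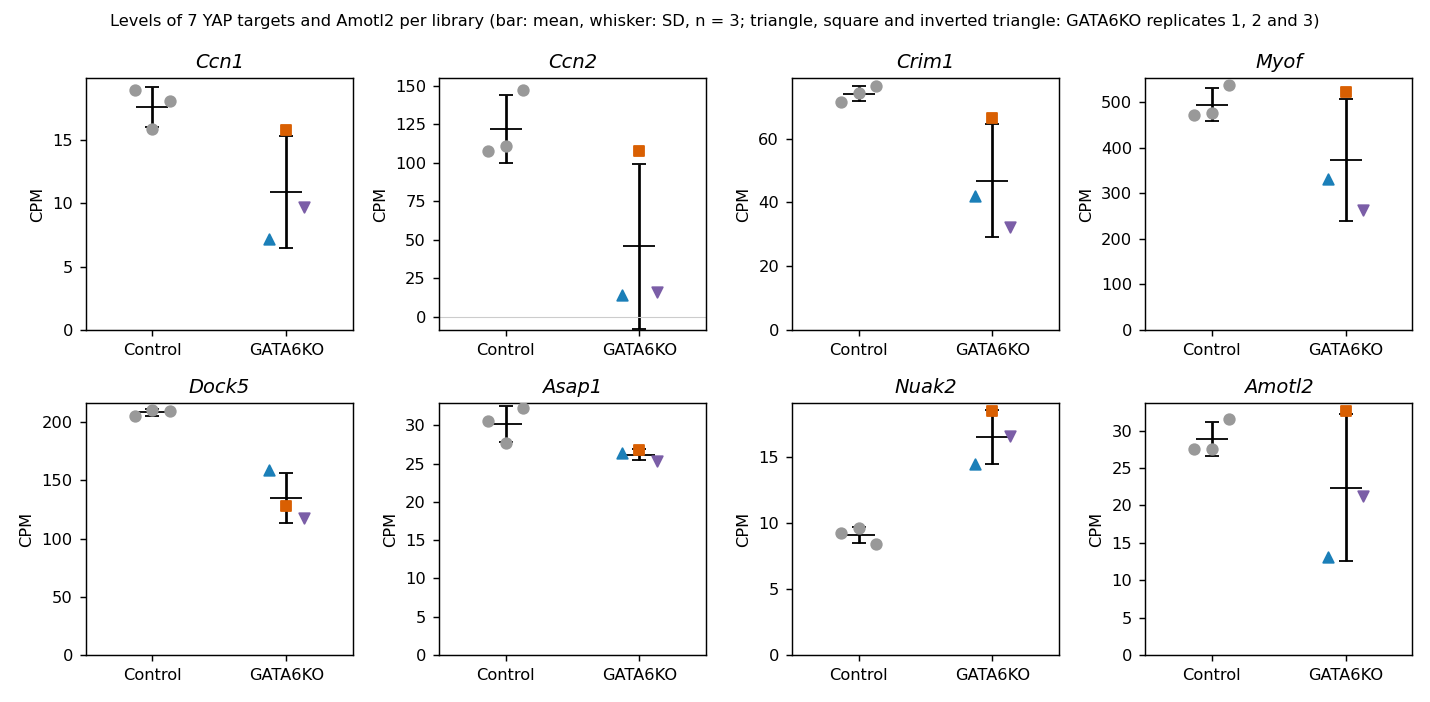
Level in CPM (vertical axes start at 0, or just below 0 for Ccn2, whose SD exceeds its mean) of Ccn1, Ccn2, Crim1, Myof, Dock5, Asap1, Nuak2 and Amotl2 in each library, with the group mean as a bar and the SD as whiskers (n = 3). In Ccn1, Ccn2, Crim1, Myof and Amotl2 the square of GATA6KO replicate 2 lies near the Control circles and the triangles of replicates 1 and 3 lie lower. In Dock5 all 3 GATA6KO libraries lie lower and in Nuak2 all 3 lie higher. Dock5 lies on chromosome 14, which was low as a whole in GATA6KO replicate 2.

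Dock5 and Nuak2 did not show that split, though in Dock5 the value of GATA6KO replicate 2 cannot be told apart from the chromosome 14 shift. Dock5 (ENSMUSG00000044447, chr14:67752135-67933442), an exchange factor for the GTPase RAC, measured 205, 210.0 and 209.9 CPM in Control and 159, 128 and 118 CPM in GATA6KO. It fell by 0.63 (SE 0.12, adjusted p = 0.024). Dock5 lies on chromosome 14, whose genes had a median log2 ratio of -0.90 in GATA6KO replicate 2. The lowest library for Dock5 was GATA6KO replicate 3, and without replicate 2 the log2 fold change was -0.59 (adjusted p = 0.0398). The part of the shift in these values was not tested. Nuak2 (ENSMUSG00000009772, chr1:132316126-132333488), an AMPK-related kinase that feeds back to support YAP, went the other way, from 9.24, 9.64 and 8.44 CPM in Control to 14.5, 18.6 and 16.6 CPM in GATA6KO. It rose by 0.86 (SE 0.15, adjusted p = 0.0156), with GATA6KO replicate 2 the highest. Asap1, a GTPase-activating protein for ARF, measured 30.2 ± 2.33 and 26.2 ± 0.751 CPM (SD, n = 3 each), with no overlap and a log2 fold change of -0.21 (SE 0.10, adjusted p = 0.226).

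Ankrd1, Axl and Fjx1, established targets in other cell types, were close to absent. Ankrd1, a muscle ankyrin repeat protein, had 7, 9 and 18 counts in Control and 3, 41 and 6 counts in GATA6KO, so its highest library was again GATA6KO replicate 2, at 1.34 CPM. The receptor tyrosine kinase Axl had 4 counts in all, 0, 1 and 3 in Control and 0 in each GATA6KO library. Fjx1, the mammalian relative of fly four-jointed, had 0 of 172210419 counts over all libraries, which allows a level of up to 0.0174 CPM (3 counts, counting error only). These 3 targets were not tested.

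Axl, Ccn1 and Ccn2 are also expressed by fibroblasts, and in bulk RNA fewer cells of a type and less RNA per cell cannot be told apart. The 10 fibroblast markers summed to 1.73 to 2.19 CPM in Control and to 3.61, 1.21 and 4.37 CPM in GATA6KO replicates 1 to 3. Only Fbln1 reached 1 CPM, at 2.94, 0.623 and 3.64 CPM in GATA6KO replicates 1 to 3, and Lum was at 0. The smooth muscle and endothelial lists summed to at most 0.667 CPM in any library. The 7 immune markers summed to 11.4 to 14.5 CPM in Control and 3.24 to 5.89 CPM in GATA6KO, with Cd68, a lysosomal glycoprotein used as a macrophage marker, as the only member at 1 CPM or more. The part of these cell types in the results was not tested.

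Leaving out GATA6KO replicate 2 changed the account of the targets more than that of the pathway. Without it 16 members were called (15.5% of all genes were called in that fit, 8.59% higher and 6.91% lower), 8 of which were also called with all libraries. The calls among targets went from 1 lower to 5 lower of 7 tested, with Nuak2 still higher, while the pathway members went from 5 lower to 7 lower and stayed at 3 higher of 26 tested. Those called only without it were Amotl1, Ccn1, Ccn2, Crim1, Fat1, Myof and Wwc2, all lower, and Tead2, higher. Nf2 and Tead4 were called only with it.

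**Figure D4:**
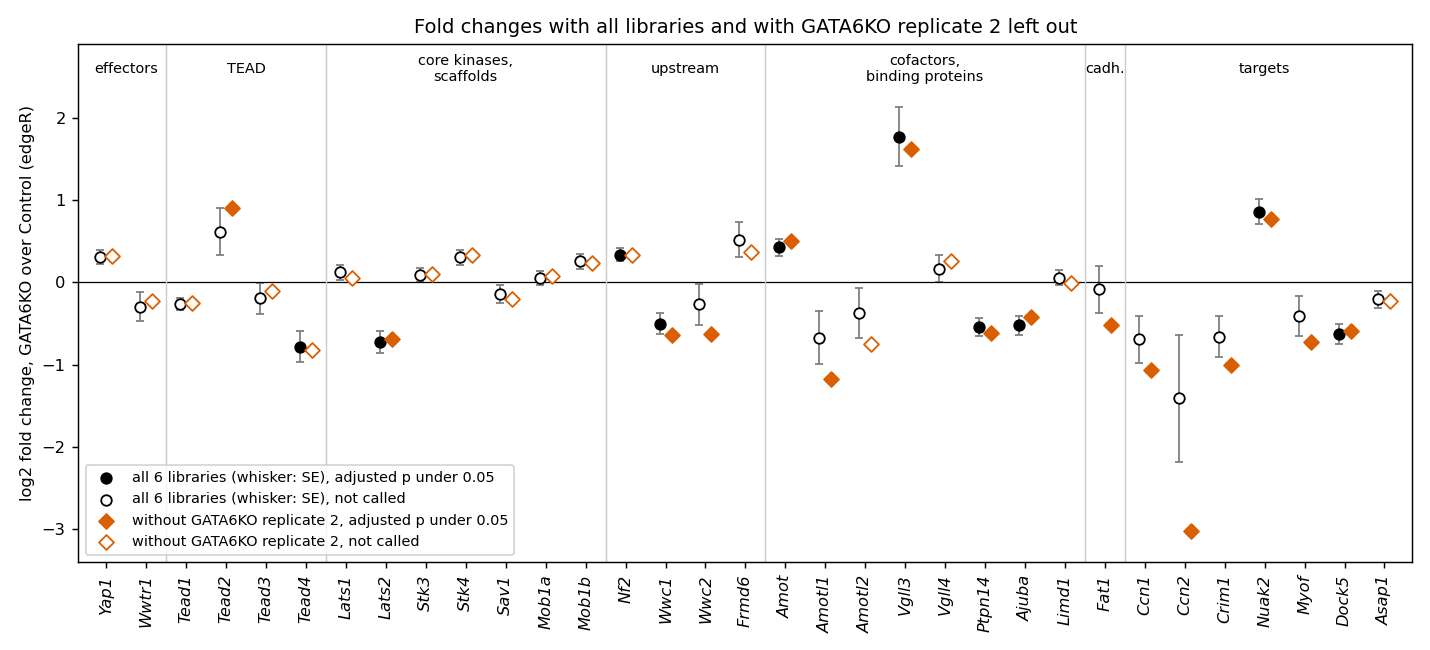
Log2 fold change of GATA6KO over Control for the 33 tested members by edgeR, with all 6 libraries (circles, whiskers are the SE) and without GATA6KO replicate 2 (diamonds), filled where the adjusted p is under 0.05. Without the replicate, 5 of 7 targets are called lower instead of 1 and Ccn2 moves from -1.41 to -3.03, while the effectors and core kinases move little.

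The order behind this split was then counted over all genes, as a description and after the values were seen. A gene was counted where GATA6KO replicates 1 and 3 lay below every Control library and replicate 2 was the highest GATA6KO library. That held for 5 of 7 targets (71.4%), for 7 of 26 pathway members (26.9%) and for 9.93% of the 14194 genes tested off chromosome 14. Both member groups include genes on chromosome 14 (Dock5 among the targets, Lats2 and Ajuba in the pathway). Among 7 further targets that are not members, described below, the order held for 2 (28.6%), F3 and Arhgef17. The 12 members were Ccn1, Ccn2, Crim1, Myof and Asap1 among the targets and Sav1, Wwc1, Wwc2, Amotl1, Amotl2, Ptpn14 and Fat1 in the pathway. Replicate 2 was 7.22 times the mean of replicates 1 and 3 for Ccn2, 2.24 times for Amotl1, 2.05 times for Fat1 and at least 1.75 times for Ccn1, Crim1, Myof, Wwc2 and Amotl2. It was only 1.302 times for Wwc1, 1.16 times for Ptpn14, 1.12 times for Sav1 and 1.04 times for Asap1, so these 4 meet the order with little or no separation of replicate 2. Gata6 itself was at 0.560, 0.629 and 0.323 of the Control mean in GATA6KO replicates 1 to 3. Replicate 2 was thus its highest GATA6KO library, as for 32.4% of all genes tested. Whether the residual Gata6 level, the chromosome 14 shift or any other property of that library bears on the split was not tested.

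Promoter sequence was examined for these members because TEAD factors bind a known core, GGAATG. It was searched on both strands, where the reverse strand reads CATTCC, and it also holds the short core of ETS factors (GGAA). The RefSeq promoter table (GRCm38.p6) held a window for 28 of the 38 members. The targets Ccn2, Asap1, Nuak2, Dock5 and Fjx1 had no window and were not searched, nor were Tead1, Tead4, Stk3, Limd1 and Dchs1. The core stood within 250 bases before a gene start for 16 of these 28 (57.1%), that is, 4 of 5 targets and 12 of 23 pathway members, against 14.4% of all 27025 genes in the table. Among members that met the order just described it stood in 7 of 10, and in 7 of the 15 other tested members with a window. These groups were formed after the values were seen, and the difference was not tested. Ccn1 is shown whole, as the classic target with the split, over the 250 bases before its start at chr3:145649986-145650235 on the minus strand, written 5′ to 3′ with the core in capitals.
Ccn1: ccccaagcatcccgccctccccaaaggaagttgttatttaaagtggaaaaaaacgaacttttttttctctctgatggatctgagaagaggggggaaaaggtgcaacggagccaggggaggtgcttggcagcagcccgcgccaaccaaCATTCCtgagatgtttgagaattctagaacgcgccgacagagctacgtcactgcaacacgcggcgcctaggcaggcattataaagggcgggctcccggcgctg
For the others the core is shown in capitals with 10 bases on each side, on the strand of the gene. Crim1, Amotl2, Wwc2, Ptpn14, Sav1 and Fat1 met the order counted above, Ptpn14 and Sav1 with little separation of GATA6KO replicate 2. Ankrd1 is a target that was too low to test, as were Axl and Fjx1. Ajuba, Axl, Mob1a, Tead3, Vgll3, Vgll4, Wwtr1 and Yap1 also held the core and are not printed.
Crim1, chr17:78200159-78200184, plus strand: ggcgggggggGGAATGaggtaggatg
Amotl2, chr9:102717729-102717754, plus strand: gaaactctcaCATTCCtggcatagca
Wwc2, chr8:47990732-47990757, minus strand: gcgagctgtgCATTCCtccgccctac
Wwc2, chr8:47990623-47990648, minus strand: gttaagctcaGGAATGtggcggcgag
Wwc2, chr8:47990608-47990633, minus strand: gtggcggcgaGGAATGtgcatgcaga
Ptpn14, chr1:189728112-189728137, plus strand: tccccggacgCATTCCtggcccgccc
Sav1, chr12:69987093-69987118, minus strand: gctttcccagCATTCCcagcggcgcg
Fat1, chr8:44950096-44950121, plus strand: gtgtgggtggGGAATGcttgatgcat
Ankrd1, chr19:36120039-36120064, minus strand: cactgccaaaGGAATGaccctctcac
Ankrd1, chr19:36119952-36119977, minus strand: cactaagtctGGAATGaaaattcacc
Not all of these windows lie upstream of the gene in GENCODE. The Amotl2, Wwc2, Ankrd1 and Fat1 windows lie inside the annotated gene, and 136 of the 250 bases for Amotl2 and all 250 for Wwc2 and Ankrd1 are annotated exon. Wwc2 holds 3 copies, at 203, 94 and 79 bases before the start, and Ankrd1 holds a pair at 210 and 123 bases. Amotl1, Myof, Wwc1 and both Lats2 windows held no match. A match is a description of these letters and not evidence of binding.

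Other targets and other pathway genes were read from lists that hold none of the members. Of 9 further genes from a YAP and TAZ target signature, 7 were tested, of which 0 rose and 3 fell (42.9% called, against 12.4% of all genes tested, and 5.47% lower), at a median log2 fold change of -0.28. F3, the coagulation factor receptor known as tissue factor, measured 97.4, 92.8 and 102 CPM in Control and 26.9, 42.0 and 10.2 CPM in GATA6KO, and fell by 1.88 (SE 0.45, adjusted p = 0.0413). Gadd45a, a stress-induced growth arrest gene, measured 48.5, 58.8 and 67.5 CPM in Control and 30.6, 17.7 and 15.4 CPM in GATA6KO, and fell by 1.46 (SE 0.28, adjusted p = 0.0211). Nt5e, the ectonucleotidase CD73, was rare, with 19, 25 and 41 counts in Control and 4, 0 and 0 counts in GATA6KO (adjusted p = 0.0267). In all 3, every GATA6KO library lay below every Control library. In F3 replicate 2 was the highest of the GATA6KO group, as for 32.4% of all genes tested. It stood at 0.431 of the Control mean there, and at 0.884 in Ccn2. F3 was not called without GATA6KO replicate 1 (adjusted p = 0.0609) or with no filter on low counts (adjusted p = 0.182), nor Nt5e without GATA6KO replicate 3 (adjusted p = 0.0515). Igfbp3, Ccdc80, Arhgef17 and Rbms3 did not pass the test.

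Of 49 further pathway genes 44 were tested, of which 1 rose and 8 fell (20.5% called, against 12.4% of all genes tested, with 6.92% higher and 5.47% lower), at a median log2 fold change of -0.07. Among those that fell was Tjp1, the tight junction scaffold ZO-1, at 441, 436 and 488 CPM in Control and 314, 244 and 236 CPM in GATA6KO (log2 fold change -0.78, SE 0.13, adjusted p = 0.0153). Crb3 and Pals1, members of the Crumbs polarity complex, both fell, by 0.56 and 0.46 on the log2 scale (adjusted p = 0.0352 and 0.0372). The sterile-20 kinases Stk24, Mink1 and Stk25 fell by 0.90, 0.59 and 0.54 on the log2 scale (adjusted p = 0.0439, 0.0427 and 0.0272). Stk24 lies on chromosome 14 and was lowest in GATA6KO replicate 2, at 72.6 CPM against 136 and 115 CPM in replicates 1 and 3, and without that replicate its log2 fold change was -0.68 (adjusted p = 0.0146). Rassf1, a scaffold that binds the MST kinases, and Nedd4l, a ubiquitin ligase, fell by 0.49 and 0.41 on the log2 scale (adjusted p = 0.02 and 0.0377). Mob4, a MOB protein of the STRIPAK phosphatase complex, rose by 0.52 (SE 0.11, adjusted p = 0.0288). Leaving out GATA6KO replicate 3 ended the calls of Stk24, Stk25 and Pals1 (adjusted p = 0.0811, 0.0523 and 0.0665), and leaving out GATA6KO replicate 2 ended that of Pals1 (adjusted p = 0.0507). Library total alone ended those of Mink1 and Nedd4l (adjusted p = 0.065 and 0.0679), and no filter on low counts those of Nedd4l and Stk24 (adjusted p = 0.0885 and 0.0524). Like the calls among members, all 12 calls named from the further lists, and that of Gata6, were lost without any 1 of the Control libraries (adjusted p from 0.0617 for Tjp1 to 0.181 for Gata6).

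Set side by side, pathway components and targets had close shares of calls, 30.8% and 28.6% against 12.4% of all genes tested, and median log2 fold changes of -0.02 and -0.63. The target median was -0.40 without GATA6KO replicate 1, -0.73 without replicate 2 and -0.33 without replicate 3. Genes were filtered anew in each fit, which tested 8 targets without replicate 1 or 3 and 7 without replicate 2. These medians therefore do not cover the same genes, and the sizes of the shifts cannot be compared directly. Counting Lats2, Amotl2, Ptpn14 and Wwc1 with the targets gave 1 higher and 4 lower of 11 tested at a median of -0.54, and left 3 higher and 2 lower of 22 pathway members at a median of 0.07. These 4 feedback genes all had negative log2 fold changes, from -0.73 to -0.37, and 3 of them fell. Of the 10 members called, Lats2, Ajuba and Dock5 lie on chromosome 14, and the other 30 tested members gave 4 higher and 3 lower. The median ratio to the Control mean over the 7 tested targets was 0.672, 0.896 and 0.550 in GATA6KO replicates 1 to 3, where all genes tested had 0.995, 1.0 and 0.999. Neither the difference between pathway members and targets nor the difference among GATA6KO libraries was tested.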

How the data were processed

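RNA was sequenced from poly(A)-selected libraries made with a directional kit (NEBNext Ultra II), per the labels' protocols. The authors deposited 1 table of estimated counts per Ensembl gene for 6 libraries, made with Salmon 1.3.0 and genome build mm10, per the submitters' processing notes. Which annotation was quantified, how transcripts were summed to genes and whether strand was used is not given in the sources used here. The deposited counts were already whole numbers.

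Symbols, positions and merged exon lengths came from GENCODE M21 on the same build (54096 identifiers matched, 322 did not). Genes were kept by filterByExpr (at least 10 counts in 3 libraries and 15 in all), which left 14714, scaled by TMM and tested with edgeR 4.0.16 in R 4.3.3 (robust quasi-likelihood, Benjamini-Hochberg, threshold 0.05, biological coefficient of variation 0.245), without a block. The SE is the log2 fold change divided by the square root of the F statistic. CPM are TMM-scaled counts per 1000000. Alternatives were RLE scaling, library total alone, DESeq2 1.42.0, limma-voom 3.58.1, no filter, a stricter filter (1 CPM in every library of either group), a block for replicate number, and leaving out 1 library at a time. The scripts were tested on simulated data, where 5 of 114 calls were false with edgeR, 70 of 199 with DESeq2 and 6 of 109 with limma-voom. Promoters came from the RefSeq table of GRCm38.p6.

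The members, gene lists and tests were chosen with earlier results of these data known. Every member is accounted for, with each library's value for members that were called, for Yap1, Wwtr1, the most abundant TEAD gene per length, Ccn1, Ccn2, Ankrd1 and members on chromosome 14. Of the further lists, called genes with at least 1 CPM in a group are named, up to 10 a list. Other members printed in full were chosen after their values were seen.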

Additional observations from a re-analysis of the deposited data

How the results depend on the processing

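RLE scaling, limma-voom and the filter at 1 CPM left every one of the 33 tested members on its side of the threshold and in its direction. Over all genes, 1018 were higher and 805 lower. DESeq2 gave 1709 and 1529, the replicate block 480 and 347, and leaving out 1 library 202 to 2235 and 130 to 2125. Library total alone moved the share of higher calls from 55.8% to 65.7% and the median of all genes from 0.02 to 0.09, and limma-voom gave a share of 49.7%. Gata6 had a log2 fold change of -0.91 with library total alone (adjusted p = 0.0573), -1.04 with the replicate block (adjusted p = 0.0915) and -1.18 to -0.75 with 1 library left out. Pathway members called higher numbered 5 with library total alone, 6 with DESeq2, 0 with the replicate block and 0 to 6 with 1 library left out; those called lower numbered 0 with the block, 0 to 7 with 1 library left out and 2 with the 4 feedback genes counted as targets. Targets called higher numbered 0 with the block and 0 to 1 with 1 library left out; those called lower numbered 0 with the block, 0 to 5 with 1 library left out and 4 with the feedback genes. Further pathway genes called higher numbered 5 with library total alone, 6 with DESeq2, 2 with the stricter filter, 0 with the block and 0 to 5 with 1 library left out; those called lower numbered 1 with the block and 0 to 11. Further targets called higher numbered 1 with DESeq2 and 0 to 1 with 1 library left out; those called lower numbered 0 with the block and 0 to 3. With 1 library left out, log2 fold changes ran from -0.52 to 0.10 for Fat1 (0.09 without GATA6KO replicate 1 and 0.10 without replicate 3, called only without replicate 2), from -0.0072 to 0.10 for Limd1 (below 0 without GATA6KO replicate 2) and from -0.036 to 0.26 for Vgll4 (below 0 without GATA6KO replicate 1), and none was past the threshold where its sign turned. In each of these the cause was not tested.

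Replicate numbers did not pair the libraries: deviations of same-numbered libraries correlated at -0.01, 0.07 and -0.09 across genes, and only replicate 2 correlated best with its own number. With the replicate block edgeR called 0 members, and 16 had an unadjusted p under 0.05. With 3 libraries a group, an exact permutation test of 1 gene cannot go below p = 0.1. The spread among GATA6KO libraries limits what could be called for Ccn1, Ccn2, Crim1 and Myof, and counts limit Ankrd1, Axl, Fjx1, Fat4 and Dchs1. Estimated counts of genes with shared exons (Lats2, Ccn2, Sav1) depend on how reads were assigned.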
